A study of Mus musculus with 16 samples.

Results

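The 43 genes described here encode complement and coagulation factors of the mouse: the 3 chains of C1q, the other complement components and inhibitors that the liver secretes, the clotting factors, and the anticoagulants and fibrinolytic proteins. They were taken as a fixed list of symbols, chosen with earlier results of these data known, and found in the tables by gene identifier. All 43 were among the 78317 genes listed, and all 43 passed the filter on low counts that left 14781 genes for testing. The study measured polyadenylated RNA of whole liver in wild-type C57BL/6J mice, an inbred strain, with 4 libraries from each of 4 groups: females and males, on a normal chow or a high fat diet. The chow was LabDiet 5053, in which fat gave 4.5% of the calories, and the high fat diet was Research Diets D12492, in which it gave 60%. Mice of all groups were bought at 6 weeks of age and kept on their diet for 10 weeks. Since 2 makers supplied the diets, ingredients besides fat may also differ, and the labels give all libraries the same batch number. The labels do not say that each library came from its own mouse, so the p-values below measure only the spread between these samples, which may be technical.

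Complement is a cascade of blood proteins that marks and lyses microbes and clears dead cells. C1q recognises antibody bound to a surface and switches on the proteases C1r and C1s, while the mannose-binding lectins do the same for sugars through the MASP proteases. Both routes cut C4 and C2 and then C3, and the terminal components C5 to C9 assemble into the pore of the membrane attack complex. Coagulation is a second protease cascade, in which factors VII, IX, X and XI lead to thrombin, and thrombin turns fibrinogen into the fibrin of a clot. Hepatocytes make most of these proteins, and fibrinogen and several complement factors are acute-phase proteins, whose genes hepatocytes induce under inflammatory cytokines such as interleukin-6. C1q is the exception: its chains come mainly from macrophages, which in the liver are above all the Kupffer cells.

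Total expected counts ran from 22228115 to 41420589 per library, and the smallest count of any member in any library was 356, for C1qc. The male high fat libraries numbered 2 and 3 resembled each other unusually closely. Between them the chi-square statistic per gene was 4.07, against 20.8 or more in every other pair of libraries of the same group. It was above the level of counting noise, but that does not show that they came from separate livers. They were kept as 2 libraries and count as 2 in the p-values. Counts of members called are also given with both left out. The other 2 male high fat libraries had far more acute-phase RNA. Summed over 14 acute-phase genes other than the members, the TPM (a length-corrected share of a library's transcripts) was 74645 and 32918 in replicates 1 and 4 and 6080 and 6196 in replicates 2 and 3. The summed TPM of 10 hepatocyte markers ran from 72240.5 to 132197 over the libraries, and albumin took between 3.73% and 9.17% of all counts.

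Per length, Fga and Fgg led the list in the mean over all libraries. The mean TPM over the 16 libraries was 3885 for the alpha chain (Fga), 3442 for the gamma chain (Fgg) and 1916 for the beta chain (Fgb). Kininogen (Kng1), the parent of bradykinin, followed at 1705 TPM, then C3, the protein on which all complement routes converge, at 1593 TPM, and plasminogen (Plg), the precursor of the clot-dissolving enzyme plasmin, at 1245 TPM. Fgb did not hold its place in every group: in females on the normal diet it stood at 1438 ± 177 TPM, below Kng1 at 1862 ± 125 TPM and C3 at 1638 ± 287 TPM (SD, n = 4), the last within their spread, and in females on the high fat diet at 1694 ± 125 TPM it was again lower than Kng1 and C3, within their spread. At the other end, Pros1 (protein S, an anticoagulant cofactor) averaged 36.9 TPM and C1qc 31.6 TPM, with C1qb at 52.0 TPM and C1qa at 44.0 TPM. Together the 43 genes took between 1.90% and 4.33% of a library's TPM. C6 changed place in the order between the sexes. C6, an early component of the pore, was the lowest of the 43 genes in females on the normal diet, at 9.36 ± 1.59 TPM (SD, n = 4), and stood at 204 ± 29.8 TPM (SD, n = 4) in males on that diet.

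Over 10 of these genes differed by sex on each diet, and none was called for diet. In edgeR's quasi-likelihood test with Benjamini-Hochberg adjustment over all 14781 genes, 13 of 43 members differed between females and males on the normal diet, 4 of them higher and 9 lower in females. Of all tested genes, 15.7% were called in that comparison, 7.03% higher and 8.68% lower. Of the members called, 5 differed by at least 2-fold, against 4.9% of all genes. On the high fat diet 16 of 43 were called, 7 higher and 9 lower in females, against 20.4% of all tested genes (8.84% higher and 11.6% lower), and 6 differed by at least 2-fold, against 6.44%. The members' share called was above the background on both diets, but the list was chosen with earlier results of these data known. Each member also had at least 356 counts in every library, which the background did not require. The members' median difference was small, at -0.06 on the log2 scale on the normal diet and -0.14 on the high fat diet, beside 0.00 and -0.01 over all genes. With male high fat replicates 2 and 3 left out, 16 and 23 members were called, where 2515 and 2704 of 15524 genes were. Female and male libraries did not overlap for 19 members on the normal diet, where 22% of all genes had no overlap, and for 16 on the high fat diet, where 22.7% had none.

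**Figure D1:**
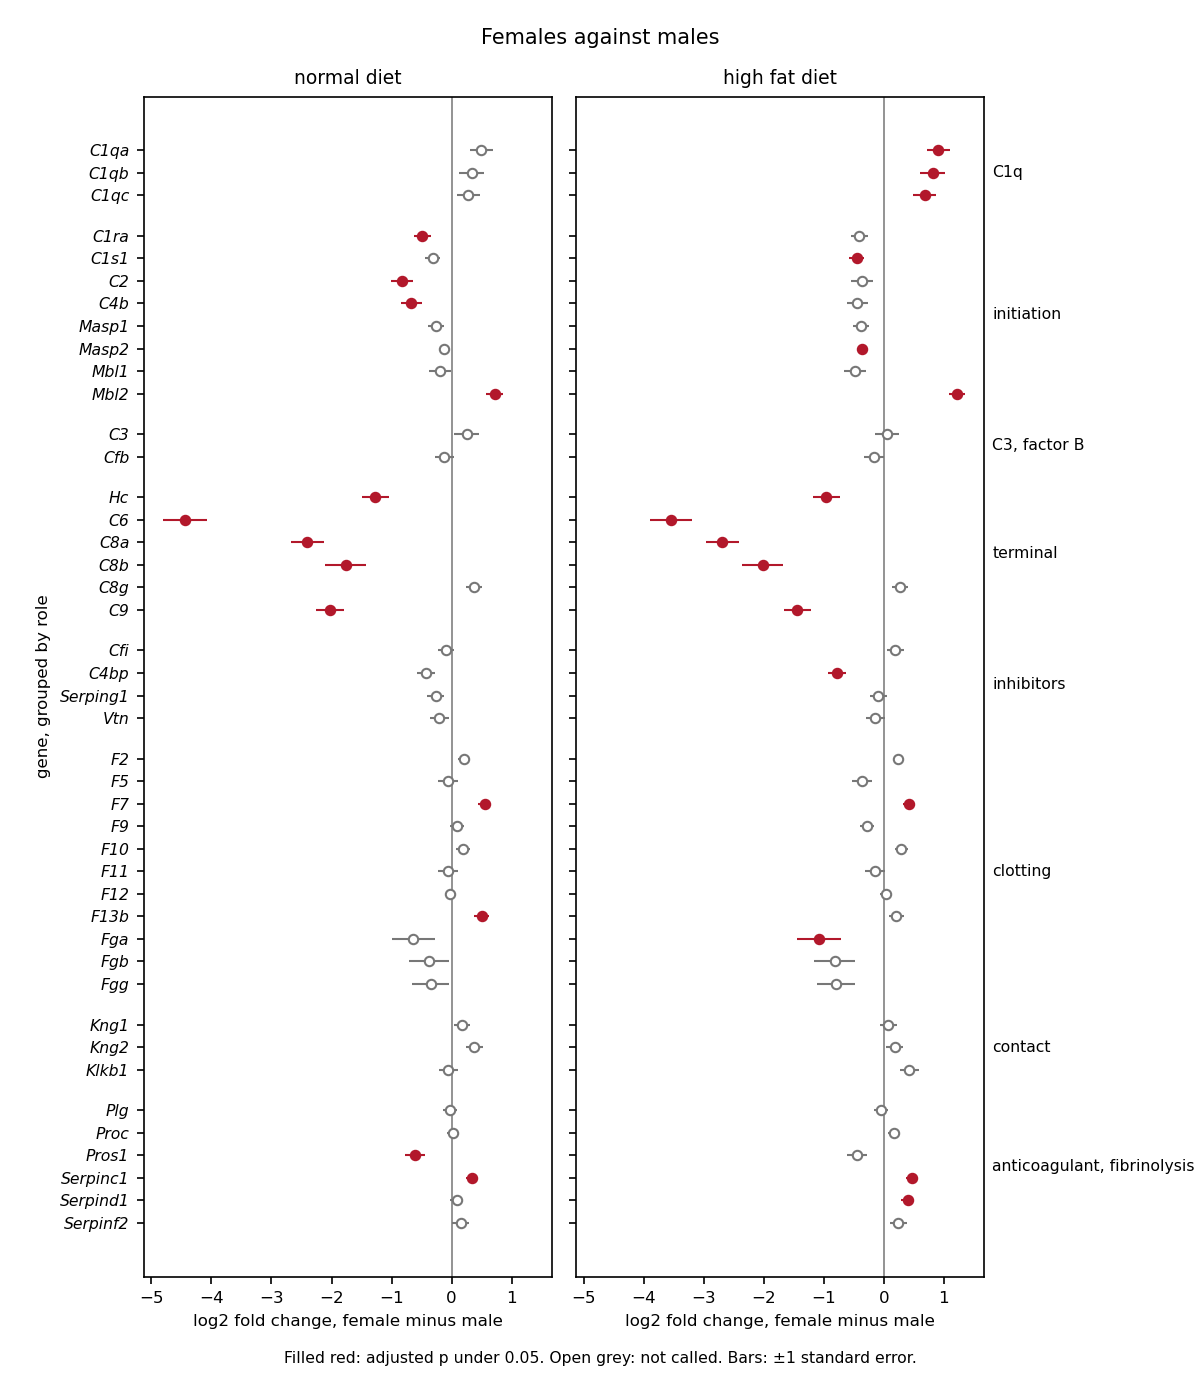
Log2 fold change of each of the 43 genes, females minus males, on the normal diet (left) and on the high fat diet (right), with genes grouped by role; points are estimates from edgeR, bars are 1 standard error and filled points were called at an adjusted p under 0.05. The terminal components C6, C8a, C8b and C9 lie farthest to the left on both diets, and Mbl2 lies farthest to the right among called genes.

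The largest differences were in the terminal components. Of the 6 measured here, 5 were lower in females than in males on both diets: Hc, which encodes C5, C6, the alpha and beta chains of C8 (C8a and C8b) and C9, whose copies line the pore. The exception was C8g, the gamma chain of C8, a lipocalin bound to the alpha chain. C8a and C8b are direct neighbours on the chromosome with no protein-coding gene between them, whereas C6 and C9 both lie on another chromosome. The stretches of 250 bases before the start of the 5 genes are shown because these genes had the largest sex differences of the list on the normal diet; they are RefSeq sequence of build GRCm38.p6, read on the gene's strand, 5′ to 3′, with motif matches in capitals. The motifs searched on both strands were TTCNNNGAA (the STAT site, found in 7.02% of 32851 such windows), TTGCNNAA (the C/EBP core, 9.56%) and CTGGGA (the core of type II interleukin-6 elements, 27%), and no match printed here overlaps another.
Hc, chr2:35061413-35061662, minus strand: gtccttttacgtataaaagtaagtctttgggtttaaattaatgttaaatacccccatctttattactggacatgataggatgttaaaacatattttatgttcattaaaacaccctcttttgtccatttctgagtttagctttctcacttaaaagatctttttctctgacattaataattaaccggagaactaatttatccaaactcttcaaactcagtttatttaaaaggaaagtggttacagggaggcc
C6, chr15:4726960-4727209, plus strand: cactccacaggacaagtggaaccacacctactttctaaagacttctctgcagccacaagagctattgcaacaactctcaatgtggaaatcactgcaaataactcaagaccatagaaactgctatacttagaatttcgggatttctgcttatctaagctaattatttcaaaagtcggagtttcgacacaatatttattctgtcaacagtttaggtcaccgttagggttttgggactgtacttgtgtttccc
C8a, chr4:104876399-104876648, minus strand: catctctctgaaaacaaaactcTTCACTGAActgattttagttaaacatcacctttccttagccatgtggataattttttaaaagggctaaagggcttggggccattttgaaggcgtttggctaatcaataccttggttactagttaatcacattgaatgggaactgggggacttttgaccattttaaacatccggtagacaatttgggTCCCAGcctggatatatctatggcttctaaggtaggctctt
C8b, chr4:104766067-104766316, plus strand: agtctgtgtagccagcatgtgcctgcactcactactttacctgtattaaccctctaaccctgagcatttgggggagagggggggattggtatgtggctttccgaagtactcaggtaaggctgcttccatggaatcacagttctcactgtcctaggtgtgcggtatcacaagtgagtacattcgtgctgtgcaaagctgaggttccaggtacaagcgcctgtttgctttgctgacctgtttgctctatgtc
C9, chr15:6445096-6445345, plus strand: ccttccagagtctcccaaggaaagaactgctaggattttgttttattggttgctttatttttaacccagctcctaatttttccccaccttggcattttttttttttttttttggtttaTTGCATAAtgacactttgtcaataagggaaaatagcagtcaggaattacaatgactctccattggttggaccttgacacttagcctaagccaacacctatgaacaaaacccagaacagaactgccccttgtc
The window of C8a held TTCNNNGAA and CTGGGA, that of C9 held TTGCNNAA alone, and those of Hc, C6 and C8b held none of the 3 motifs. A match is only a match of letters in this window. The 5 genes thus shared no one of these motifs.

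C6 had the widest gap. Its normalised counts, scaled to the library size (CPM) and given for replicates 1 to 4, were 19.7, 23.1, 24.3 and 18.5 in females on the normal diet and 26.4, 26.5, 27.7 and 24.4 in females on the high fat diet. The normal-diet males had 405, 462, 522 and 478 CPM. Every male library was above every female library, and the male high fat group split, with 446 and 489 CPM in replicates 1 and 4 and 144 and 145 CPM in replicates 2 and 3. The difference, females minus males, was -4.45 ± 0.37 on the log2 scale (SE, n = 4 per group), 21.8-fold lower in females, with an adjusted p of 1.76e-06 from edgeR on the normal diet. The high fat difference was -3.54 ± 0.35, 11.6-fold lower, adjusted p = 1.02e-05.

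C8a stood between 191 and 259.8 CPM in females on the normal diet and between 132 and 198 CPM on the high fat diet. In males on the normal diet the 4 libraries had 937, 1255, 1331 and 1105 CPM, and on the high fat diet 1400.0, 585, 583 and 1433 CPM. No female library reached the lowest male one. C8a was 5.28-fold lower in females on the normal diet (-2.40 ± 0.28, adjusted p = 2.55e-05, edgeR) and 6.45-fold lower on the high fat diet (-2.69 ± 0.28, adjusted p = 7.20e-06).

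C8b gave 175, 168, 193 and 218 CPM in females and 607, 652, 691 and 608 CPM in males with normal chow. With high fat food females had 142, 88.1, 93.7 and 81.6 CPM and males 669.9, 194, 199.6 and 577 CPM. The sexes did not overlap on either diet, although male replicates 2 and 3 on the high fat diet lay within the range of females on the normal diet. The difference was -1.76 ± 0.34 on the normal diet (3.39-fold lower in females, adjusted p = 0.00334, edgeR) and -2.02 ± 0.34 on the high fat diet (4.05-fold lower, adjusted p = 0.00124).

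For C9 the female libraries lay between 290.3 and 321 CPM on the normal diet and between 306 and 367 CPM on the high fat diet. Males had 1133, 1430.2, 1320.1 and 1142 CPM with normal chow and 1118, 562, 577 and 1420.3 CPM on the high fat diet, all above the females. C9 was 4.08-fold lower in females on the normal diet (-2.03 ± 0.23, adjusted p = 1.78e-05, edgeR) and 2.72-fold lower on the high fat diet (-1.44 ± 0.23, adjusted p = 0.000409).

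Hc had the smallest gap of the 5. Its level was 565, 600.1, 691 and 692 CPM in females and 1141, 1812, 1719.7 and 1471 CPM in males with normal chow, and 536, 769, 741 and 695 CPM in females and 1695, 864, 873 and 1885 CPM in males on the high fat diet. Females were lower without overlap on both diets, by 2.41-fold (-1.27 ± 0.23, adjusted p = 0.00153, edgeR) and by 1.94-fold (-0.96 ± 0.23, adjusted p = 0.00781). On TPM values tested with limma, the high fat difference missed the threshold, with an adjusted p of 0.0558 at a pseudocount of 1 and 0.0578 at a pseudocount of 0.1. C8g ran from 194 to 266 CPM in females and from 149 to 221 CPM in males with normal chow and differed by 0.38 ± 0.14 (adjusted p = 0.0688). With the replicate number as a block, since libraries of the same number deviated together in this comparison, C8g was called higher in females (0.38, adjusted p = 0.0349), and DESeq2 (adjusted p = 0.0406), limma on log2 TPM (0.0312) and edgeR with no scaling factor (0.046) called it too. That block was fitted over all 16 libraries, although the other comparisons showed no such pairing. The high fat difference of C8g was 0.27 ± 0.14 (adjusted p = 0.161), and on log2 TPM with limma 0.44 (adjusted p = 0.00854). The median difference of all genes in that limma comparison was 0.10, beside -0.01 in edgeR. C8g was singled out after its values were seen. Per length, the ratio of C8a to C8g was between 0.192 and 0.356 in the 8 female libraries and between 0.853 and 2.69 in the 8 male libraries.

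**Figure D2:**
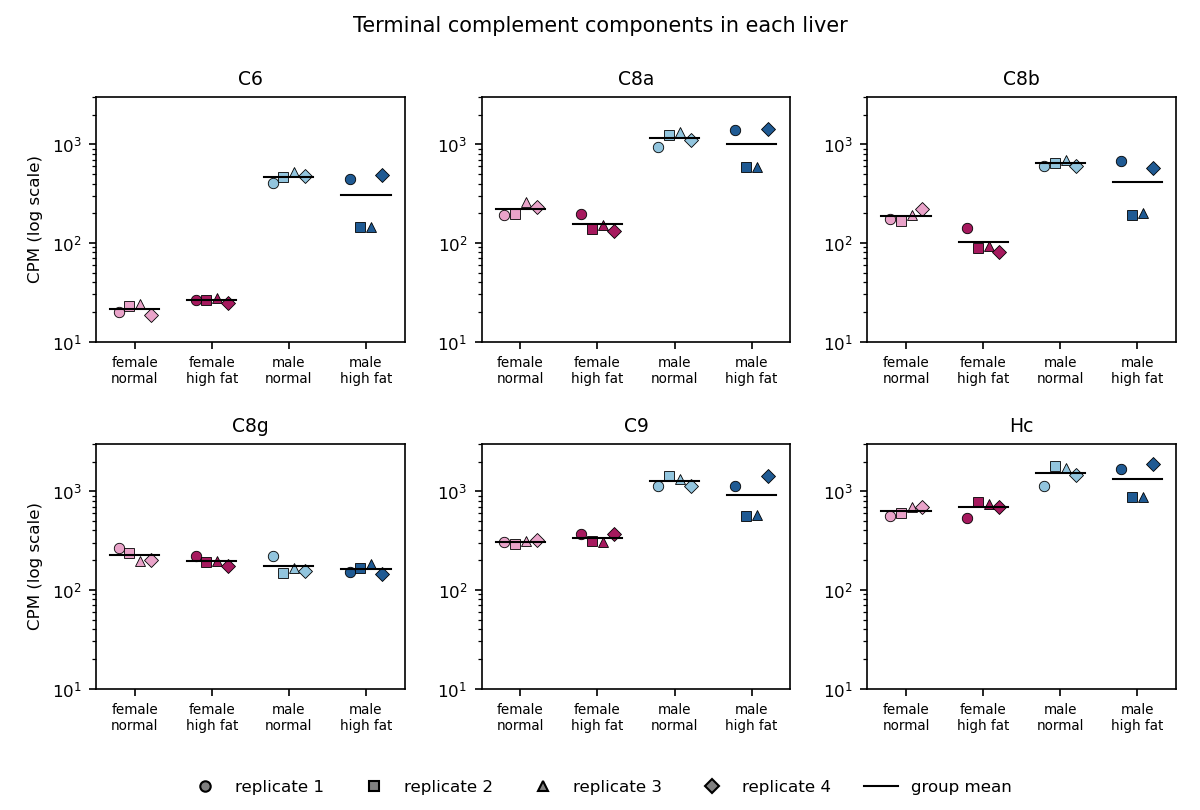
CPM on a log axis of the 6 terminal components in every library, by group; points are single libraries and horizontal bars are group means of 4. For C6, C8a, C8b, C9 and Hc every male library lies above every female library on the same diet, and male high fat replicates 2 and 3 lie lowest among males on that diet; C8g shows no such gap.

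With male high fat replicates 2 and 3 both left out, the high fat differences were larger: -4.15 for C6, -3.19 for C8a, -2.62 for C8b, -1.91 for C9 and -1.38 for Hc on the log2 scale. The difference between the sexes was not shown to depend on diet for any of the 5: for C6 the interaction, the female diet change minus the male one, was 0.91 ± 0.45 with an adjusted p of 0.422.

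Among 8 early genes of the classical and lectin routes, with the C1q chains taken separately below, Mbl2 was the only one called higher in females. Mbl2 encodes mannose-binding lectin C and was the member with the largest called excess in females. It gave 701, 689, 527 and 514 CPM in females and 363, 430.2, 317 and 368 CPM in males with normal chow. With high fat food females had 731, 648, 709 and 622 CPM and males 243, 309, 338 and 272 CPM. Females were above males in every library, 1.64-fold on the normal diet (0.72 ± 0.14, adjusted p = 0.00217, edgeR) and 2.33-fold on the high fat diet (1.22 ± 0.14, adjusted p = 1.21e-05). Mbl1, which encodes mannose-binding lectin A, differed by -0.19 ± 0.18 (adjusted p = 0.517) on the normal diet and -0.49 ± 0.18 (adjusted p = 0.0683) on the high fat diet. The TPM ratio of Mbl2 to Mbl1 was 4.61 to 7.53 in female libraries and 1.18 to 3.87 in male ones.

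Several early genes of the classical and lectin routes were lower in females on 1 diet or the other. On the normal diet these were C2 (-0.83 ± 0.18, adjusted p = 0.0061), C4b, the gene of C4 (-0.67 ± 0.17, adjusted p = 0.014), and C1ra, a C1r gene (-0.49 ± 0.14, adjusted p = 0.028). With high fat food they were C1s1, a C1s gene (-0.45, adjusted p = 0.0165), and Masp2, the lectin-route protease (-0.36 ± 0.09, adjusted p = 0.00926), all from edgeR. On log2 TPM with limma the Masp2 difference was only -0.032 (adjusted p = 0.812). Reads of these genes can be shared with other genes: the share of their 50-base stretches also present in another gene was 41.5% for C2, 34.6% for C4b (with C4a), 50.8% for C1ra (with C1rb), 35.1% for C1s1 (with C1s2) and 52.5% for Masp2 (with Tardbp on the other strand). Such a share is not a share of reads, and how far it affects the values of these genes was not measured. Masp1 differed by -0.25 and -0.38 on the 2 diets and was called on neither (adjusted p = 0.208 and 0.0546). The terminal genes C6, C8a, C8b and C9 and the lectin genes Mbl1 and Mbl2 share no such stretch.

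The hub of the cascade did not pass the test. C3 averaged 7062.9 ± 852 CPM (SD, n = 4) in females and 5942.0 ± 992 in males on the normal diet, a log2 difference of 0.25 ± 0.20 (adjusted p = 0.429), and 0.05 ± 0.20 on the high fat diet (adjusted p = 0.879). Factor B (Cfb), the protease of the alternative route, differed by -0.12 and -0.17 (adjusted p = 0.661 and 0.486), with 73% of its 50-base stretches also in an overlapping gene model. Of the 4 inhibitors, C4bp, the C4b-binding protein, was lower in females on the high fat diet (-0.79 ± 0.15, adjusted p = 0.00168), with 658, 599.6, 629.6 and 622 CPM in females and 1416, 819, 845 and 1249 CPM in males. Its normal-diet difference was -0.42 (adjusted p = 0.0633). Factor I (Cfi), C1 inhibitor (Serping1) and vitronectin (Vtn), which blocks assembly of the pore, were called on neither diet, with differences between -0.27 and 0.19.

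Of 11 procoagulant genes, 2 were higher in females on the normal diet, near the 15.7% of all genes called there. F7, the protease that tissue factor activates, stood at 107, 116, 91.9 and 94.1 CPM in females and 71.3, 72.8, 73.8 and 62.0 CPM in males, with no overlap (0.55 ± 0.11, adjusted p = 0.00241, edgeR), and was higher again on the high fat diet (0.42 ± 0.11, adjusted p = 0.0109; 0.27 with adjusted p = 0.138 without male high fat replicates 2 and 3). F13b, the carrier chain of the clot-stabilising factor XIII, was higher on the normal diet (0.50 ± 0.13, adjusted p = 0.0148) and differed by 0.21 ± 0.13 on the high fat diet (adjusted p = 0.265). Prothrombin (F2) and factors V, IX, X, XI and XII were called on neither diet by edgeR, with differences from -0.36 to 0.29. DESeq2 called F2 higher in females on both diets (adjusted p = 0.0131 and 0.00123) and F10 on the high fat diet (0.0142). Limma on log2 TPM with a pseudocount of 1 called both on the high fat diet (0.00343 and 0.00408). In that limma comparison the median difference of all genes was 0.10, beside -0.01 in edgeR. It called 2957 of all genes higher in females and 753 lower. Not every alternative called F2 and F10. None of the 3 contact-system genes was called by edgeR: Kng1, Kng2 and Klkb1, the prekallikrein gene, differed by -0.05 to 0.42. Some alternatives called Klkb1 higher in females on the high fat diet, among them DESeq2 (adjusted p = 0.0345) and limma on log2 TPM (0.00875 at a pseudocount of 1). DESeq2 also called Kng2 higher in females on the normal diet (0.0437). Kng1 and Kng2 are near-copies, with 17.2% and 19.4% of their 50-base stretches in another gene, and for Plg, described next, the share was 10.2%.

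Among the 6 anticoagulant and fibrinolytic genes, Serpinc1, which encodes antithrombin, was higher in females on both diets. Its level was 2014, 2121, 1973 and 1918 CPM in females and 1597, 1643, 1595 and 1496 CPM in males with normal chow, without overlap (0.34 ± 0.10, adjusted p = 0.0237, edgeR), and the difference was 0.47 ± 0.10 on the high fat diet (adjusted p = 0.00321). Of its 50-base stretches, 33.6% also occur in Zbtb37, so some of its reads could belong there. Heparin cofactor II (Serpind1), a second thrombin inhibitor, was higher in females on the high fat diet (0.40 ± 0.11, adjusted p = 0.0148), and protein S (Pros1) was lower in females on the normal diet (-0.61 ± 0.17, adjusted p = 0.0199). Plasminogen, protein C (Proc) and the plasmin inhibitor Serpinf2 were called on neither diet by edgeR, with differences from -0.05 to 0.24. Limma on log2 TPM with a pseudocount of 1 called Proc higher in females on the high fat diet (adjusted p = 0.00994), and DESeq2 did not. That limma comparison carried the shift of all genes given above with F2 and F10. Leaving out 1 library or changing the method ended the normal-diet calls of C1ra in 7, Pros1 in 5, Serpinc1 in 5 and C4b in 2 of 26 alternatives, and the high fat calls of C1s1 and of Masp2 in 5 each.

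Diet gave no called member in either sex. In edgeR's quasi-likelihood test 0 of 43 members passed for diet in females, where 11.5% of all tested genes did (5.74% with more RNA and 5.76% with less on the high fat diet). For diet in males 0 of 43 passed, where 11.4% of all genes did (6.03% and 5.36%). Calls of at least 2-fold made up 3.36% of all genes in females and 3.67% in males. At an unadjusted p under 0.05 there were 6 members in females (4 higher, 2 lower) and 7 in males (2 higher, 5 lower). The shares of all tested genes under that value were 27.2% and 27.5%. DESeq2 called 4 members in females and 1 in males, and 2322 and 2250 of all 14777 genes. Limma on log2 TPM called 7 members in females and 0 in males. At a pseudocount of 1 it called 2926 and 1342 of all 14781 genes. The median diet difference of the 43 genes was -0.02 on the log2 scale in females and -0.01 in males, beside 0.00 and 0.01 over all genes. With male high fat replicates 2 and 3 left out, 6 members were called in females and 7 in males. Of the 15524 genes tested then, 1710 and 1182 were called. The libraries of the diets did not overlap for 8 members in females and 4 in males, where 18.3% and 18.5% of all genes had no overlap.

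**Figure D3:**
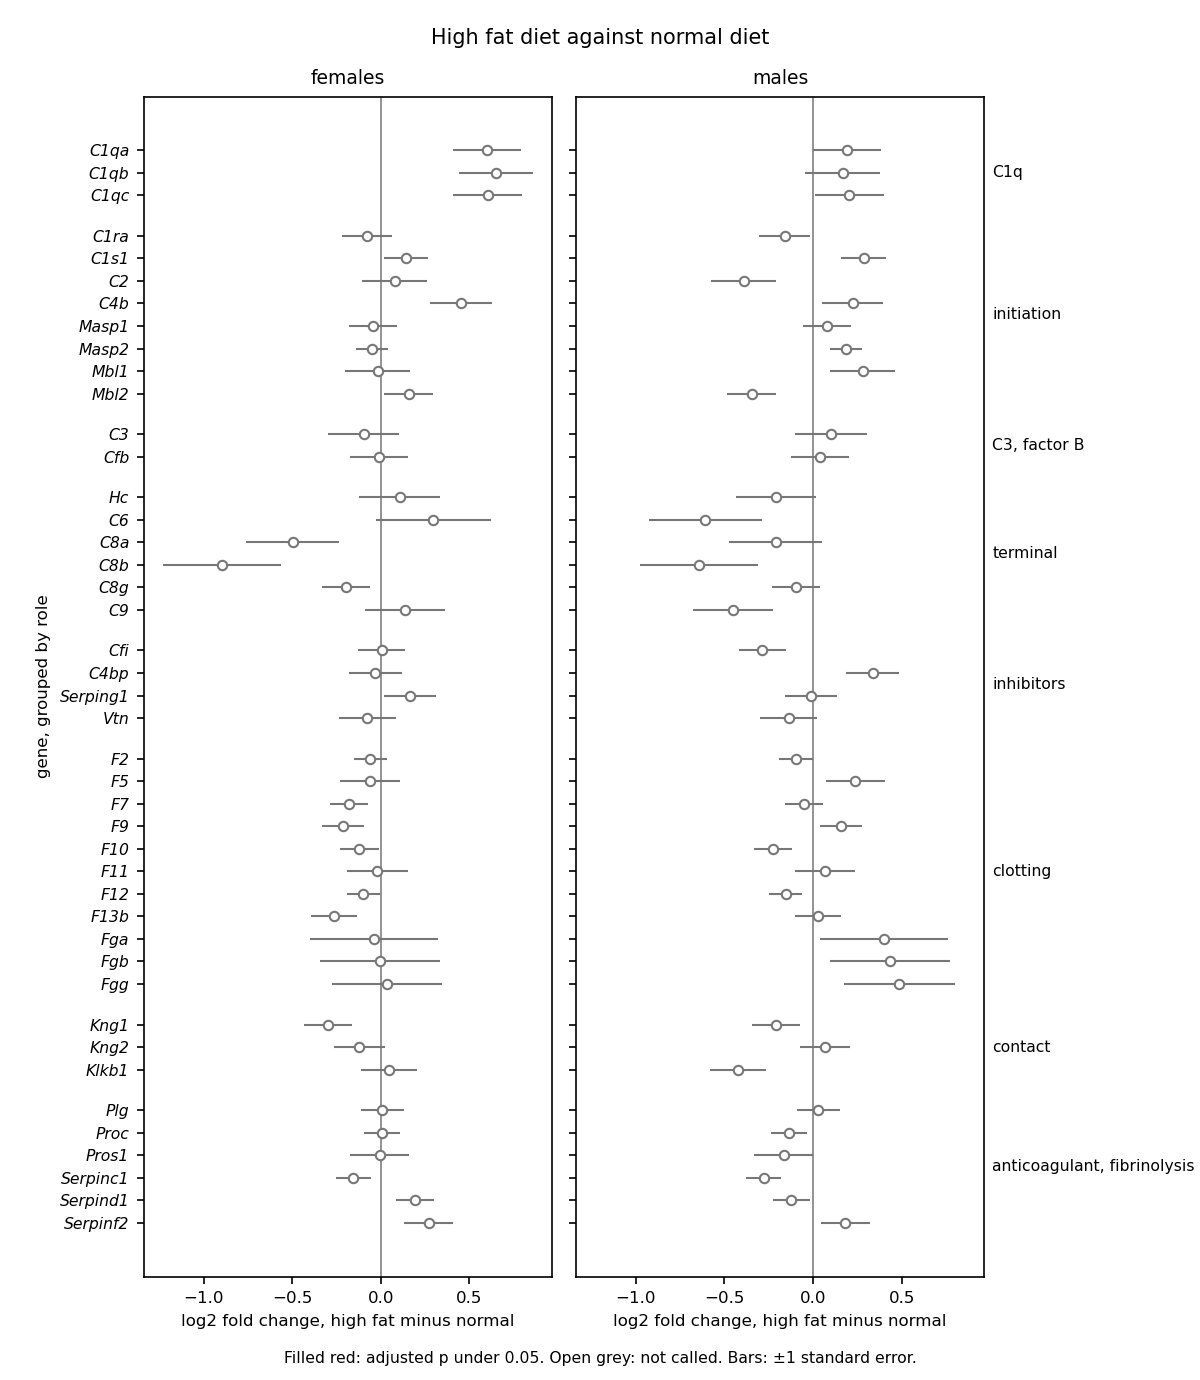
Log2 fold change of each of the 43 genes, high fat minus normal diet, in females (left) and in males (right), with genes grouped by role; points are estimates from edgeR and bars are 1 standard error. No point is filled, since none was called, and the 3 C1q chains lie farthest to the right in females, between 0.60 and 0.65.

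The C1q chains had the highest diet differences of the list in females, and none of them was called in either sex. C1qa gave 29.8, 33.3, 25 and 18.5 CPM in females on the normal diet and 50.2, 38.2, 31.9 and 41.4 CPM on the high fat diet. C1qb gave 33.8, 39.8, 29.0 and 24.7 CPM and then 57.4, 45.6, 41.5 and 55.2 CPM, with no overlap between the diets. C1qc gave 21.5, 27.9, 21.6 and 17.0 CPM and then 36.4, 32.3, 25.4 and 39.5 CPM, and like C1qa it overlapped. The differences, high fat minus normal diet, were 0.60 ± 0.19, 0.65 ± 0.21 and 0.60 ± 0.19 on the log2 scale, and each narrowly missed the threshold, with adjusted p-values of 0.0507, 0.054 and 0.0524 in edgeR. Over 26 alternatives the 3 chains passed in 10, 12 and 13 of them. The other 40 members ranged from -0.90 to 0.45 in females, with a median of -0.03.

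In males C1qa stood at 17.9, 21.6, 17.8 and 18.2 CPM on the normal diet and at 30.5, 18.1, 17.0 and 20.8 CPM on the high fat diet. C1qb gave 21.9, 29.8, 25.1 and 24.1 CPM and then 41.7, 21.4, 18.9 and 31.6 CPM. C1qc gave 14.7, 22.1, 17.9 and 17.6 CPM and then 29.1, 17.4, 15.3 and 21.6 CPM. High fat replicate 1 was the highest male library for all 3 chains, and the groups overlapped. The male differences were 0.19, 0.17 and 0.20 (adjusted p = 0.565, 0.652 and 0.540), and without that library they were -0.03, -0.09 and -0.01. The difference between the sexes in the diet response was itself not called, at 0.41 ± 0.27, 0.48 ± 0.30 and 0.40 ± 0.28 (adjusted p = 0.564, 0.531 and 0.584).

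On the high fat diet all 3 chains were higher in females than in males, by 0.91 ± 0.19 for C1qa (adjusted p = 0.00382), 0.82 ± 0.21 for C1qb (adjusted p = 0.0126) and 0.68 ± 0.20 for C1qc (adjusted p = 0.021). Without male high fat replicates 2 and 3 these were 0.66, 0.45 and 0.40 with adjusted p-values of 0.0506, 0.118 and 0.21, so the calls of C1qa and C1qb were lost there, in 1 of 26 alternatives each. The call of C1qc was lost in 6 of 26, also without female high fat replicate 1 (adjusted p = 0.0588) or 4 (adjusted p = 0.0677). On the normal diet the differences were 0.50, 0.33 and 0.28, and none was called (adjusted p = 0.0889, 0.303 and 0.354). C1qa, C1qb and C1qc are neighbours with no protein-coding gene between them, and their levels kept close ratios over the 16 libraries: per length C1qa was 0.700 to 0.959 of C1qb, and C1qc 0.533 to 0.709.

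The summed C1q chains went with the summed Kupffer cell markers. The summed TPM of 10 Kupffer markers was 219 ± 28.0 (SD, n = 4) in females on the normal diet and 406.6 ± 77.6 on the high fat diet, and it ran from 179 to 242 and from 329 to 513 in single libraries. In males it was 193 ± 48.0 and 216.7 ± 73.2, with overlapping ranges of 149 to 258 and 146 to 309. An exact two-sided permutation test gave p = 0.0286 in females, the smallest value that 4 against 4 libraries allow (adjusted p = 0.171 over 12 such tests), and p = 0.629 in males. The summed TPM of the C1q chains was 113 ± 20.5 and 206 ± 38.2 in females and 87.3 ± 15 and 104 ± 33.5 in males. The ratio of the C1q sum to the Kupffer sum stayed between 0.415 and 0.632 over all 16 libraries, with group means of 0.512 and 0.511 in females on the normal and high fat diets and 0.459 and 0.484 in males. The 40 other members summed to 21159 ± 1425 TPM and 24364 ± 1072 TPM in females on those diets and to 24600.0 ± 5374 TPM and 28306 ± 11645 TPM in males. All these sums carry a general shift of TPM with diet in females. There the median diet difference of all genes was 0.15 on log2 TPM with a pseudocount of 1, and 0.00 with TMM scaling. With TMM scaling the 40 other members had a median of -0.03 in females, and the C1q chains 0.60 to 0.65. In bulk tissue, more cells of a type and more RNA per cell cannot be told apart.

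Some single Kupffer genes passed the test. Of all tested genes, 5.74% were called higher on the high fat diet in females. In males 6.03% were called higher and 5.36% lower. Between the sexes, 7.03% were called higher in females on the normal diet and 8.84% on the high fat diet. In females on the high fat diet 3 of 10 were called and higher: Cd68, a lysosomal protein of macrophages (0.90 ± 0.16, adjusted p = 0.00193), Csf1r, the receptor that keeps macrophages alive (0.60 ± 0.16, adjusted p = 0.0183), and Cd5l (0.82 ± 0.25, adjusted p = 0.0421). Cd163, a scavenger receptor in the same list, was at -0.64 ± 0.43 (adjusted p = 0.364), with 4.38, 22.6, 21.6 and 9.89 CPM on the high fat diet against 19.8 to 25.6 CPM on the normal diet; it was singled out after its values were seen. In males only Cd68 was called (0.63 ± 0.16, adjusted p = 0.0183), and Timd4, the next by p, differed by -0.46 (adjusted p = 0.229). Between the sexes, 6 of the 10 were higher in females with high fat food and 0 with normal chow. Of the 10 markers of other macrophages, 7 were higher in females on the high fat diet, among them Lpl (1.83, adjusted p = 0.00625) and Ccr2 (1.46, adjusted p = 0.00662). In males 5 were higher and 1 lower, led by Ccr2 (1.72, adjusted p = 0.00231) and Mmp12 (4.20, adjusted p = 0.00453). The part of cell numbers in the C1q levels was not tested beyond these values.

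**Figure D4:**
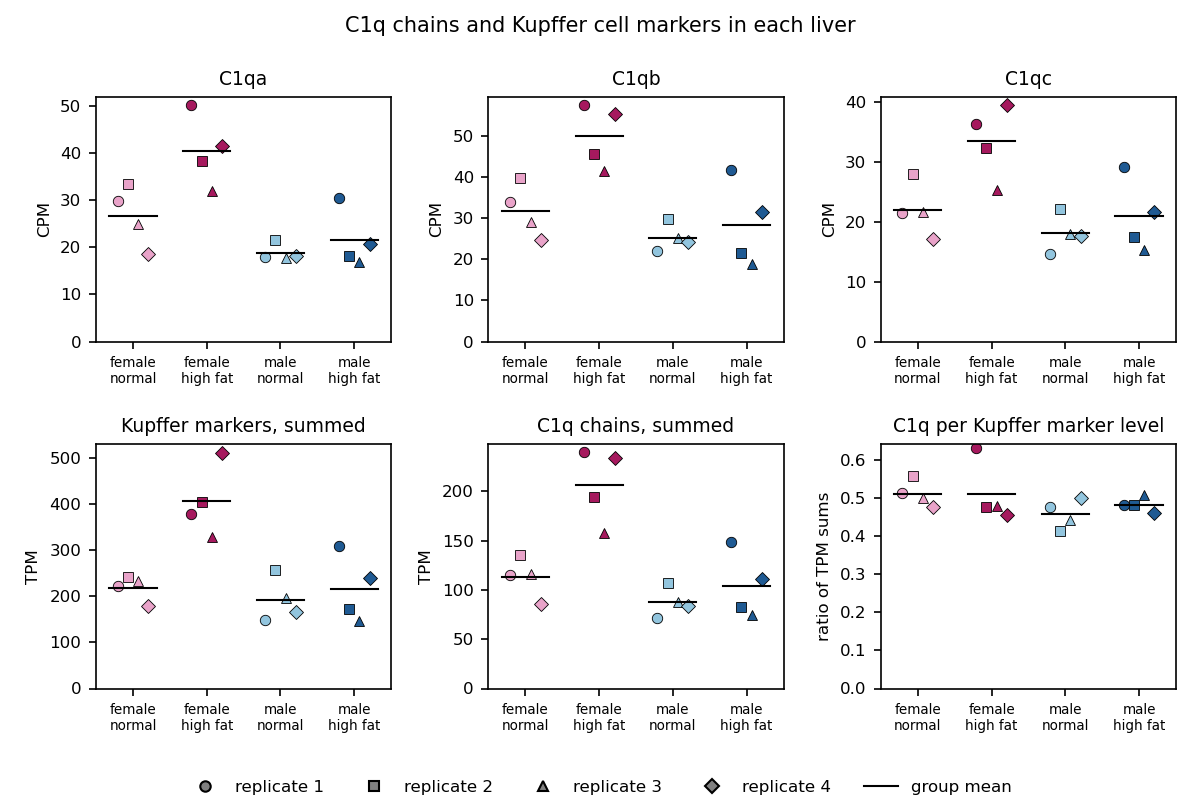
CPM of the C1q chains (top row), and below them the summed TPM of 10 Kupffer markers, the summed TPM of the 3 C1q chains and the ratio of these sums, in every library by group; points are single libraries and horizontal bars are group means of 4. Both sums are highest in females on the high fat diet, while the ratio lies between 0.415 and 0.632 in all libraries.

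The hepatocyte factors spread to both sides of 0 for diet in females, from C8b at -0.90 to C4b at 0.45. C3, Cfb, C1ra, Masp1, Masp2 and Mbl1 differed by -0.10 to -0.01 between the diets in females, and prothrombin, plasminogen and protein C by -0.06 to 0.01. The members nearest the threshold after C1q were C8b (SE 0.33, adjusted p = 0.0951), C4b (SE 0.17, adjusted p = 0.0963) and Kng1, at -0.30 ± 0.14 (adjusted p = 0.16). C4b gave 663, 646, 861 and 791 CPM on the normal diet and 934, 1055, 961 and 1099 CPM on the high fat diet, without overlap. In males the nearest were Serpinc1 at -0.28 ± 0.10 (adjusted p = 0.0708), Klkb1 (adjusted p = 0.0895) and Mbl2 at -0.35 ± 0.14 (adjusted p = 0.108). The male differences of C8b, C6 and C9 were -0.64 ± 0.33, -0.61 ± 0.32 and -0.45 ± 0.22, with adjusted p-values of 0.228, 0.232 and 0.202, and they came with the split of the male high fat libraries given above. The scaling of libraries mattered for the signs: 18 of the 43 female differences were positive with TMM scaling, 37 with no scaling factor, where the median of all genes was 0.19, and 39 on log2 TPM with a pseudocount of 1, where it was 0.15.

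The fibrinogen chains varied together, and most of all among the male libraries. Fga and Fgb lie next to each other and Fgg next to Fga, and the windows of 250 bases before their starts are shown because the 3 chains kept close ratios over the libraries; the source, strand and motifs are as for the terminal components.
Fga, chr3:83025903-83026152, plus strand: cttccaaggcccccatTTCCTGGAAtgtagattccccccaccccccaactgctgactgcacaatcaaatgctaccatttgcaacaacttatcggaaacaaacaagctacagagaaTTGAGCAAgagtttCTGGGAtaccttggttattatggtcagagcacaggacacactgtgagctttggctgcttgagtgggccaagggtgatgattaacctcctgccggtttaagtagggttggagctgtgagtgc
Fgb, chr3:83049864-83050113, minus strand: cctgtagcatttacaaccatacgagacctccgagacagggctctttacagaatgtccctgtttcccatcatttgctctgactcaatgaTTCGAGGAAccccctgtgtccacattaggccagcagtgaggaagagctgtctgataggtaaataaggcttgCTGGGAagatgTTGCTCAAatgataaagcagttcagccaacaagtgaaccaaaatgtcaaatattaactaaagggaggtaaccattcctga
Fgg, chr3:83007474-83007723, plus strand: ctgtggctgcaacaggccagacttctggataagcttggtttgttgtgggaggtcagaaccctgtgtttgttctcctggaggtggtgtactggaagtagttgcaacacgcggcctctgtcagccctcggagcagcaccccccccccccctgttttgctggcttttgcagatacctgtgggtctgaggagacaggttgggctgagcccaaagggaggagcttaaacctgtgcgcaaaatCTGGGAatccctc
The windows of Fga and Fgb each held all 3 motifs, and that of Fgg held CTGGGA alone. Over the list, 33 of 43 members had a window in the RefSeq table, 35 windows in all. Of these, 6 held TTCNNNGAA, 9 TTGCNNAA and 15 CTGGGA.

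Fga gave 3754, 4354, 4280.3 and 4554 CPM in females on the normal diet and 3894, 4654, 4099 and 3839 CPM on the high fat diet. In males it gave 4418, 9067, 7867 and 5019.6 CPM on the normal diet and 16948, 4148, 4243 and 9480.5 CPM on the high fat diet. Females were within a narrow range on both diets, while the male libraries spread widely within each group. Fgb went from 3951 to 14795 CPM and Fgg from 3004 to 10542 CPM in the same male high fat group, with replicates 1 and 4 high and replicates 2 and 3 low in both. Across the 16 libraries the TPM of Fga was 1.62 to 2.28 times that of Fgb, and that of Fgg 1.69 to 1.95 times.

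The male diet differences of Fga, Fgb and Fgg were 0.40 ± 0.36, 0.44 ± 0.34 and 0.49 ± 0.31 on the log2 scale, with adjusted p-values of 0.513, 0.44 and 0.339. In females they were -0.04, -0.01 and 0.03. Without male high fat replicates 2 and 3 the male differences were 1.00, 1.01 and 1.03, with adjusted p-values of 0.0227, 0.0159 and 0.00813, so the outcome rests on those libraries. Fga was 2.11-fold lower in females than in males on the high fat diet (-1.08 ± 0.36, adjusted p = 0.0485, edgeR), but the groups overlapped and 21 of 26 alternatives ended the call. Fgb and Fgg differed by -0.82 ± 0.34 and -0.80 ± 0.31 (adjusted p = 0.0996 and 0.0808).

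The same male libraries were high for other acute-phase genes. Saa1, serum amyloid A1, gave 39.9, 469, 763 and 97.4 CPM in males with normal chow and 5386, 77.2, 71.6 and 2197 CPM on the high fat diet, so that high fat replicates 1 and 4 and normal-diet replicates 2 and 3 stood out, as for Fga. Of the 14 other acute-phase genes, 0 were called for diet in females and 1 in males (Orm3, 2.51, adjusted p = 0.0292), with Lcn2 next (4.29, adjusted p = 0.0549). In females the smallest p-values belonged to Orm3 (-1.45, adjusted p = 0.16) and Crp (-0.21, adjusted p = 0.493). Between the sexes, 1 was higher and 1 lower in females on the normal diet, and 6 were lower on the high fat diet. The high male high fat libraries also had higher C6, C8a, C8b, C9, Hc, C4b, C4bp and Mbl1 than replicates 2 and 3, and lower Klkb1, at 183 and 271 CPM against 351 and 359.8 CPM. Among other members, C3, Cfb, Vtn and Serping1 were higher in replicates 1 and 4 too. Serpinc1 was lower there, at 1307 and 1170 CPM against 1359 and 1380 CPM, as was Mbl2. The part of the acute-phase level in these differences was not tested.

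**Figure D5:**
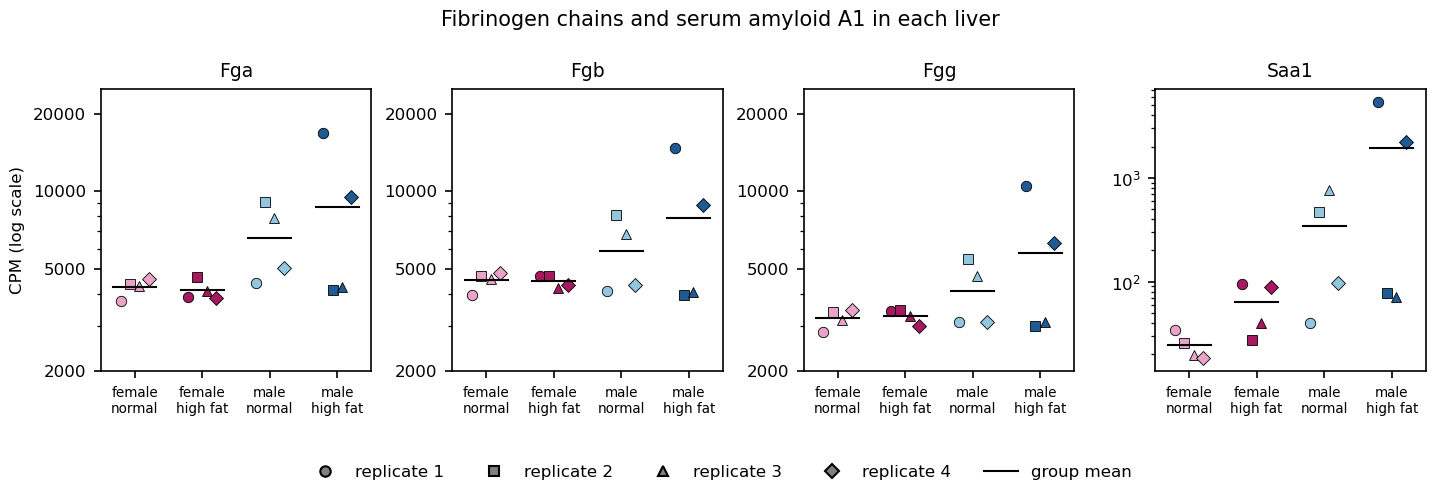
CPM on a log axis of Fga, Fgb, Fgg and Saa1 in every library, by group; points are single libraries, with a marker for each replicate number, and horizontal bars are group means of 4. Male high fat replicates 1 and 4 and male normal-diet replicates 2 and 3 are high in all 4 panels, and the female libraries of the fibrinogen chains lie close together.

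For the interaction, the test of whether diet acted differently in the sexes, 0 of 43 members were called, against 0.677% of all tested genes (0.264% with a positive and 0.413% with a negative difference, female diet change minus male, and 0.453% of at least 2-fold). At an unadjusted p under 0.05 there were 3, where 13% of all tested genes were: Mbl2, at 0.50 ± 0.19 (adjusted p = 0.272), F9, at -0.37, and Klkb1, at 0.47. DESeq2 and limma called 0. Leaving out male high fat replicates 2 and 3 gave 2 calls, C4bp (-0.67, adjusted p = 0.0448) and Klkb1 (0.83, adjusted p = 0.0489), where 131 of 15524 genes were called. Of the 50-base stretches of Klkb1, 42.7% also occur in an overlapping gene model.

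The wider pathway, taken from a separate list of 59 receptors, regulators and further factors of which 55 were tested, gave a share of diet calls near that of all genes. In females 6 of 55 rose and 2 fell on the high fat diet, where 11.5% of all tested genes were called. F3, tissue factor, the cell-surface trigger of clotting, rose from 2.00, 2.76, 2.85 and 2.71 CPM to 4.74, 5.13, 5.50 and 5.34 CPM (1.00 ± 0.18, adjusted p = 0.00209, edgeR). Fgl2, a fibrinogen-like protein, rose by 0.96 ± 0.24 (adjusted p = 0.0165) and C1rl, a C1r-like protease, by 0.34 ± 0.09 (adjusted p = 0.017). Cfhr2, a relative of factor H, fell by 0.56 ± 0.13 (adjusted p = 0.00926), from 1391, 1468, 1020.1 and 1198 CPM to 718, 945, 960.4 and 815 CPM.

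In males 5 of the 55 rose and 1 fell, where 11.4% of all genes were called. F3 rose again, from 1.94, 2.17, 2.29 and 2.08 CPM to 5.65, 3.94, 3.16 and 5.27 CPM (1.08 ± 0.18, adjusted p = 0.00117, edgeR), and its groups did not overlap in either sex. Anxa2 and S100a10, which together form a cell-surface receptor for plasminogen, rose by 1.28 ± 0.20 (adjusted p = 0.00049) and 1.03 ± 0.16 (adjusted p = 0.000563). Cfd, factor D, the adipocyte-made protease of the alternative route, was called at 4.07 ± 1.04 (adjusted p = 0.0236), but its libraries had 0.329, 0.0856, 0.432 and 0.568 CPM on the normal diet and 0.372, 9.64, 10.2 and 3.76 CPM on the high fat diet, and 10 of 26 alternatives ended the call. Over those 4 high fat libraries the other adipocyte markers were low: Adipoq had 0.409, 0.611, 0.412 and 1.46 CPM, Plin1 at most 0.487 CPM, and Lep 0, 3, 7 and 1 counts, in the same order as Cfd. The part of adipocyte RNA in the Cfd call was not tested. Plgrkt, a plasminogen receptor, was called at 0.94 ± 0.29 (adjusted p = 0.0446) and lost in 15 alternatives. For the interaction 0 of the 55 were called. On the normal diet 8 were higher and 4 lower in females than in males, the smallest p-values being those of F2r, a thrombin receptor (-1.22 ± 0.12, adjusted p = 4.18e-06), C4a (-3.52 ± 0.46, adjusted p = 0.000226), whose reads can be shared with C4b, and Colec11, a lectin that binds MASP proteases (0.67 ± 0.12, adjusted p = 0.00162). With high fat food 8 were higher in females and 8 lower, where 20.4% of all tested genes were called, against 15.7% on the normal diet. C7, the remaining component of the pore, belongs to this list and was at or below 2.43 CPM in every library; it was lower in females on the normal diet (-1.18 ± 0.35, adjusted p = 0.0295) and differed by -0.37 on the high fat diet (adjusted p = 0.46), and was named after its values were seen.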

How the data were processed

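The authors deposited estimated (expected) counts and TPM per gene for 16 mouse liver libraries; the submitters' processing notes name STAR, RSEM and build GRCm39. Whether counting used the strand and how libraries were trimmed is not given in the sources used here. RSEM shares reads that fit several genes between them, so 4.89% of the entries of the deposited expected count table were not whole. The deposited TPM values are corrected for length and scaled to a fixed total by the authors. Expected counts were rounded. Genes were kept by filterByExpr of edgeR 4.0.16 (R 4.3.3), which left 14781, and library sizes were scaled by TMM. The quasi-likelihood test of edgeR, robust and two-sided, was fitted to all 16 libraries with 1 mean per group and gave 5 contrasts. P-values were adjusted by Benjamini-Hochberg over all tested genes and called under 0.05. The standard error is the size of the log2 fold change over the square root of F, and CPM use the TMM-scaled library size.

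Symbols were matched by identifier without version. Shared reads were judged from 50-base stretches of GENCODE M21 transcripts, and promoter windows came from RefSeq. The members and all lists were chosen with earlier results of these data known. All members are accounted for; values in every library are given for the C1q chains and for members called for diet, or called for sex with at least a 2-fold difference, and for others beside a result. From the wider pathway the 5 called genes with the smallest p in each diet contrast and the 3 in the normal-diet sex contrast are named, and from each other list the 2 with the smallest p where it is described; some items that this rule chose are not reported here. The lists cover the wider pathway, acute phase, liver regulators, and markers of hepatocytes, Kupffer cells, other macrophages, endothelium, stellate cells, cholangiocytes, T and B cells, neutrophils, red blood cells, pancreatic acinar cells and adipocytes.

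Replicate numbers are shared between groups. Libraries of the same number deviated together between females and males on the normal diet (correlations 0.31, 0.14, 0.14 and 0.26), which pairs them by the rule that every pair exceeds 0.1, and not in the other comparisons. Alternatives were DESeq2 1.42.0, limma 3.58.1 on log2 TPM with a pseudocount of 1 or 0.1, other scaling, no filter, a replicate block, only the groups compared, each library left out, and male high fat replicates 2 and 3 averaged or left out. The fitting code was tested on simulated data.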

Additional observations from a re-analysis of the deposited data

Results flagged for a closer look

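Of 172 groups of 4 libraries, 1 for each member and group, 6 held a library whose gap to its nearest neighbour exceeded Dixon's 95% critical value of 0.829 of the range; chance flags about 1 in 20 groups, or 8.6 of these. They were C1qa in males on the normal diet, where replicate 2 had 21.6 CPM and the nearest library 18.2; Masp1 in females on the high fat diet, where replicate 1 had 101.7 CPM and the nearest 159; and Mbl1 in females on the normal diet, where replicate 3 had 163.2 CPM and the nearest 178. In females on the high fat diet, replicate 1 also stood apart for F10, at 406.1 CPM against 369.5, and for F13b, at 264.4 CPM against 384.5. In males on the high fat diet, replicate 1 stood apart for F12, at 239.8 CPM against 213.8. Female high fat replicate 1 thus accounts for 3 of the 6, low for Masp1 and F13b and high for F10.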

How the results depend on the processing

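C6, C8a, C8b, C9 and Mbl2 were called in both sex contrasts under all 26 alternatives. Their normal-diet differences ranged from -4.50 to -4.31, -2.49 to -2.33, -1.83 to -1.70, -2.07 to -1.96 and 0.65 to 0.80, and their high fat differences from -4.15 to -3.05, -3.19 to -2.40, -2.62 to -1.64, -1.91 to -1.15 and 1.17 to 1.40. The count of members called for diet in females, 0 by edgeR, was 6 with no scaling factor, 4 with only the groups compared, 4 with DESeq2, 7 and 7 with limma on log2 TPM at pseudocounts 1 and 0.1, 2 with male high fat replicates 2 and 3 averaged, and 6 with both left out. Over all genes those settings called, in that order, 2690 of 14781, 1439 of 14009, 2322 of 14777, 2926 and 2763 of 14781, 1630 of 15048 and 1710 of 15524. For diet in males the count of members was 1 with no scaling factor (1830 of 14781 genes), 1 with DESeq2 (2250 of 14777) and 7 with both left out (1182 of 15524). For the interaction it was 2 with both left out (131 of 15524). That last alternative was added after seeing the data. Leaving out 1 library in turn gave 0 to 3 members for diet in females, 0 to 3 for diet in males, 0 for the interaction, 9 to 16 for sex on the normal diet and 14 to 23 for sex on the high fat diet. Those fits called 947 to 1874, 1113 to 2043, 51 to 176, 1325 to 2766 and 1974 to 3062 of 15016 to 15111 genes. Without male high fat replicate 1 the male diet differences of C1qa, C1qb and C1qc reversed, to -0.032, -0.090 and -0.0096 (highest values with 1 library left out 0.29, 0.32 and 0.33), and the male difference in summed Kupffer TPM went from 23.8 to -6.96 (range -6.96 to 47.4). Without female high fat replicate 1 the female difference in summed hepatocyte marker TPM went from 3547 to -1637 (range -1637 to 6141). The cause was not tested. Over single genes 570 results kept direction and call, 25 gained a call, 47 lost it and 3 reversed. With the replicate block, 1 member was called for diet in females (C1qa, adjusted p = 0.0276), 0 for diet in males, 0 for the interaction, 14 for sex on the normal diet (C8g gained, adjusted p = 0.0349) and 17 for sex on the high fat diet (Masp1 and F10 gained, Fga lost). In the same order, 1864, 1980, 101, 2685 and 3445 of all 14781 genes were called. Not every library correlated best with its own number. The interaction needs all 4 groups, so it could not be fitted with only the groups compared. The count of 356 for C1qc was the lowest of any member, so no member was near the limit of detection.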

Other observations

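Liver transcription regulators and cytokine receptors, a list of 21, held diet calls in both sexes. In females, where 11.5% of all tested genes were called, 4 rose, among them Cebpa and Foxa2, and 5 fell (Hnf4a, Cebpb, Cebpd, Foxa3 and Il6ra). Il6ra, the receptor for interleukin-6, fell by 1.33 ± 0.19 on the log2 scale (adjusted p = 0.000266, edgeR), from 106, 97.7, 115 and 108 CPM to 29.0, 50.4, 42.5 and 47.9 CPM, with no overlap. Cebpb, a transcription factor of the acute-phase response, fell by 1.15 ± 0.21 (adjusted p = 0.00218). In males 1 rose and 2 fell, near the 11.4% of all genes called there: Stat5b, which carries growth hormone signals, rose by 0.71 ± 0.13 (adjusted p = 0.00243), Foxa3 fell by 1.25 ± 0.22 (adjusted p = 0.00214) and Hnf4a by 0.47 (adjusted p = 0.0139). For Il6ra the male libraries had 91.5, 84.4, 103 and 85.3 CPM on the normal diet and 45.2, 82.4, 81.4 and 52.7 CPM on the high fat diet. It was low in high fat replicates 1 and 4, which had high acute-phase RNA. Normal-diet replicates 2 and 3 had 15145 and 17120 TPM of the 14 acute-phase genes, and replicates 1 and 4 had 5740 and 7266 TPM. Il6ra was not lower in both of the former. The part of the acute-phase level in Il6ra was not tested. For the interaction 0 were called. Between the sexes, 1 was higher (Esr1, the oestrogen receptor alpha) and 3 lower in females on the normal diet, and with high fat food 2 were higher and 7 lower. The shares of all tested genes called for sex were 15.7% on the normal diet and 20.4% on the high fat diet.

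Markers of other liver cells held some calls. Of all tested genes, 11.5% were called for diet in females, 11.4% for diet in males and 15.7% for sex on the normal diet. For diet in females, 1 of 10 hepatocyte markers fell, 2 of 7 stellate markers rose, 1 of 2 neutrophil genes tested rose (by 2.51, with the summed neutrophil TPM at 2.33 ± 0.333 on the normal diet and 8.83 ± 5.72 on the high fat diet, SD, n = 4), and 0 passed of the endothelial, cholangiocyte, T and B cell, red blood cell, pancreatic and adipocyte lists. For diet in males, 2 of 10 hepatocyte markers and 1 of 5 cholangiocyte markers fell. Of 2 adipocyte genes tested 1 rose, which was Cfd, also in the wider pathway list. Summed adipocyte marker TPM was 1.31, 19.89, 20.76 and 9.75 in the 4 male high fat libraries and at most 3.59 elsewhere, and Cfd alone made up 0.74, 19.04, 20.14 and 7.69 of those 4 values. For sex on the normal diet, 3 of 10 hepatocyte, 1 of 7 endothelial and 2 of 7 stellate markers were higher in females. Of 5 cholangiocyte and 4 red cell markers, 1 each was lower.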
